A study of Rattus norvegicus with 6 samples.

Results

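The genes described here encode the named proteins of the mitochondrial ribosome, the Mrpl genes of its large subunit and the Mrps genes of its small subunit, in primary neonatal rat cardiomyocytes. The members were the genes whose symbol begins with Mrpl or Mrps and a number and which the platform gene table pairs, alone, with at least 1 probe set. A probe set is the group of array probes that reports 1 transcript. A gene with several was represented by the one that was brightest on average across the 6 samples. This gave 68 members, on 72 probe sets, of 14506 genes measured in this way. Of the 68, 43 encode proteins of the large subunit and 25 of the small subunit. A single probe set of this kind shared Mrpl20 with a neighbouring symbol and was not used.

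The samples were cultures of heart muscle cells from 2-day-old Sprague-Dawley rats, given hCT1 (human recombinant cardiotrophin 1, a cytokine of the interleukin-6 family) at 0.5 nM for 24 h in 3 samples or control serum-free medium (Ctrl) in 3 samples. The comparison asks how the cytokine changes the transcriptome of these cells after 1 day. No genetic change or other agent separates the groups. The growth field of the sample records speaks of a hypertrophic agonist in the medium of all 6 samples, whereas the treatment field gives plain serum-free medium as the control. If the controls also had an agonist, each difference below is relative to it. The cells came from ventricles with the atria removed and were pre-plated to deplete other cells, so that cells of other types may remain. RNA was isolated in triplicate. Whether each RNA came from its own culture is not given in the sources used here, and the p-values therefore reflect a spread between samples that may be technical only.

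The mitochondrial ribosome translates the few messages that mitochondrial DNA encodes, all of them subunits of the respiratory chain and ATP synthase. Its ribosomal RNAs are made inside the organelle, whereas every one of its proteins is encoded in the nucleus, made in the cytosol and imported. Some of these proteins are counterparts of bacterial ribosomal proteins, and others exist only in mitochondrial ribosomes. Heart muscle is rich in mitochondria and depends on oxidative phosphorylation.

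Most mitochondrial ribosomal protein genes did not pass the test between the groups, and most of those that did were lower with hCT1, by small amounts. With limma on the deposited log2 values and Benjamini-Hochberg adjustment over 15310 probe sets, 19 of the 68 members (27.9%) were lower at an adjusted p under 0.05, against 9.58% of all 14506 genes. In the other direction 2 members (2.94%), Mrps27 and Mrpl46, were higher, against 5.09% of all genes. The remaining 47 did not pass. The median log2 fold change over all 68 members, hCT1 against Ctrl, was -0.14, which is 8.99% lower, with the middle 50% of the members between -0.23 and -0.02. Over all genes the median was -0.00048 and the middle 50% lay between -0.11 and 0.09. Of the 68 members, 53 had a value below 0 and 15 above. Before adjustment, 32 members were lower and 3 higher at p under 0.05, against 2592 lower and 1735 higher of all 14506 genes.

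How many members passed depended on single samples. The count of lower members was 7 without Ctrl replicate 1, 11 without Ctrl replicate 2 and 22 without Ctrl replicate 3, while 5.13%, 5.23% and 11.7% of all genes were then lower. Leaving out hCT1 replicate 1, 2 or 3 gave counts of 8, 9 and 8, with 5.74%, 5.23% and 6.36% of all genes lower. The median of the members stayed between -0.15 and -0.12. Of the 2 higher members, Mrps27 passed in each of these fits, and Mrpl46 did not pass without Ctrl replicate 1 or without any 1 of the 3 hCT1 replicates. Across all genes, 1390 were lower and 739 higher, a split that became 1058 lower and 886 higher when the deposited values were quantile-normalized again. With that step 12 members were lower and 2 higher, and the members' median was -0.10.

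The groups were fully apart, with every hCT1 sample below every Ctrl sample, in 33 of the 68 members, against 20.0% of all genes. They were fully apart in the other direction in 5 members, against 14.2% of all genes, and overlapped in 30. All 21 members that passed were among those fully apart. The plot of all members shows the values of both subunits spread around their medians, from -0.44 for Mrpl48 to 0.36 for Mrps27.

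**Figure D1:**
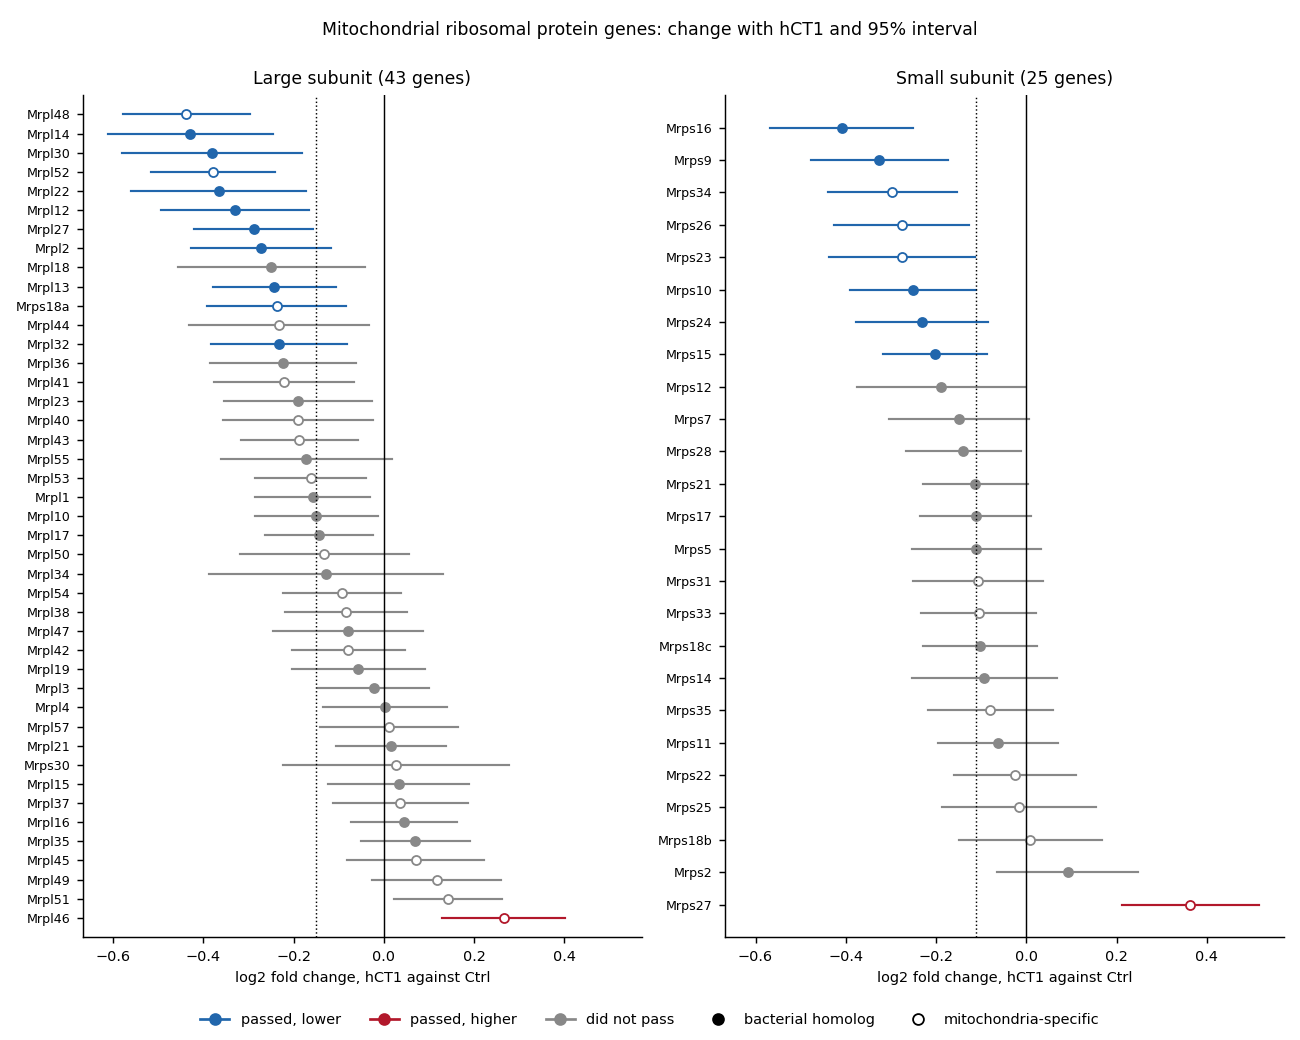
Log2 fold change (hCT1 against Ctrl) of each of the 68 mitochondrial ribosomal protein genes with its 95% interval from limma, large subunit on the left and small subunit on the right. Blue marks the 19 genes that passed and were lower and red the 2 that passed and were higher. Filled points mark the proteins grouped as having a bacterial counterpart, and the dotted line marks the median of the subunit (-0.15 and -0.11).

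Taken sample by sample, the median deviation of the members from their own mean over the 6 samples was above 0 in the 3 Ctrl samples and below 0 in the 3 hCT1 samples. In the Ctrl samples 45 to 56 of the 68 members lay above their own mean, and in the hCT1 samples 13 to 22 did. The median deviation over the 68 members was 0.07 in Ctrl replicate 1, 0.08 in Ctrl replicate 2 and 0.03 in Ctrl replicate 3. It was -0.07, -0.06 and -0.06 in the hCT1 replicates. Ctrl replicate 3 was thus the control sample nearest to the treated ones, and no hCT1 sample reached it. For all genes the medians lay between -0.02 and 0.02. Of the 19 lower members, 13 had their highest value in Ctrl replicate 1, 3 in Ctrl replicate 2 and 3 in Ctrl replicate 3. Their lowest value was in hCT1 replicate 1 for 7, in hCT1 replicate 2 for 7 and in hCT1 replicate 3 for 5.

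**Figure D2:**
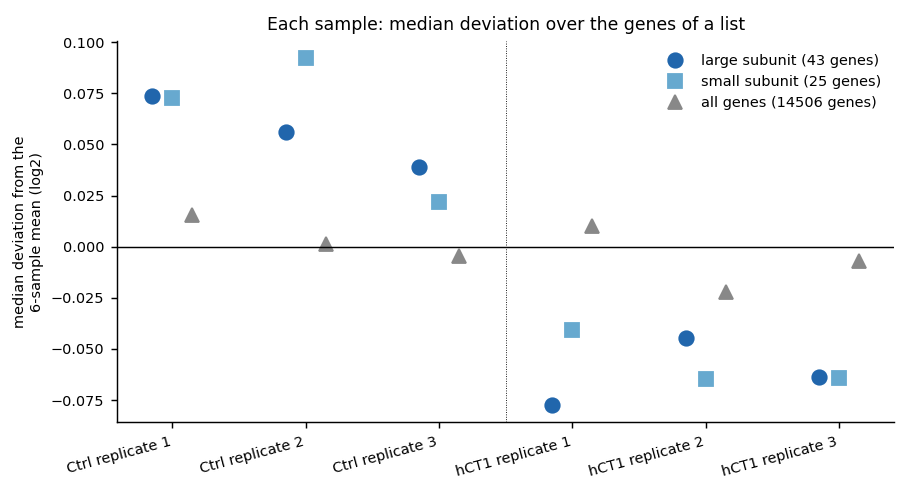
Median deviation of each sample from the mean of the 6 samples (log2), over the 43 large subunit genes, the 25 small subunit genes and all 14506 genes. In both subunits the medians of the 3 Ctrl samples lie above 0 and those of the 3 hCT1 samples below it, while the medians over all genes stay between -0.02 and 0.02.

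The arrays of a group correlated at 0.997 to 0.998 and those of different groups at 0.994 to 0.996 (Pearson's r over 29215 probe sets). The members were among the brighter probe sets, with mean signals from percentile 52.3 to 98.4 and a median at percentile 83.0, against 61.2 for all genes. Among the 10038 genes at or above percentile 40, 23 of the 68 members were lower, against 17.6% of those genes. The cardiomyocyte markers chosen were all bright (percentile 81.2 to 99.8). Of the 10, 4 were lower (Tnni3, Myl2, Myh6 and Ttn), and their summed linear signal was 23532 to 23828 in Ctrl and 21517 to 22594 in hCT1 samples. Of 6 smooth muscle markers 4 were lower, with sums of 10220 to 10474 in Ctrl and 9546 to 9727 in hCT1. None of the 10 fibroblast markers passed, with sums of 9079 to 9528 and 8578 to 8828, nor did any of the 10 macrophage markers, with sums of 414 to 477 and 391 to 433. Of 10 endothelial markers only Emcn passed and was lower, and the sums were 1244 to 1399 and 1273 to 1317. The part that these marker differences have in the members' values was not tested. In such bulk RNA, fewer cells of a type and less RNA per cell cannot be told apart.

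The bases just before the transcription start are shown for the 6 largest falls and the largest rise, as examples of the members that differed most. They come from the RefSeq promoter table of build GRCr8, run 5' to 3' on the strand of the gene, and end at the base before the first start listed. Capitals mark matches, on either strand, to the 7 motifs described later in the text. The sequence before Mrps27 stops short of the start of Ptcd2, which runs the other way.
Mrpl48: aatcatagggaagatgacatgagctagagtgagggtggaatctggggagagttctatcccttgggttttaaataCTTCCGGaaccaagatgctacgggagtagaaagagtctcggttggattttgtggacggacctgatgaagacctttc
Mrpl14: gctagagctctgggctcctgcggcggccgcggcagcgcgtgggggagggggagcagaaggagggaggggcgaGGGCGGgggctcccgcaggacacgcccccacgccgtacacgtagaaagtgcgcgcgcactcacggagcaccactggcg
Mrps16: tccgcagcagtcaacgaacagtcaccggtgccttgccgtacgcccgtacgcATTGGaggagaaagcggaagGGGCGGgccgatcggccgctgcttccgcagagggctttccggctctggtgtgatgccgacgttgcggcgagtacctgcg
Mrpl30: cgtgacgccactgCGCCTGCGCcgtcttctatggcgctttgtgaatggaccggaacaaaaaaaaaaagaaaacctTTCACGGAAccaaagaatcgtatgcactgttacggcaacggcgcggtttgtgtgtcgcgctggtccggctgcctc
Mrpl52: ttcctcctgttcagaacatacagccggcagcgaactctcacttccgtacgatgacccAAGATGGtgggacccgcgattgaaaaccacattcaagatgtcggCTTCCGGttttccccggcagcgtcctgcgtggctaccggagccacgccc
Mrpl22: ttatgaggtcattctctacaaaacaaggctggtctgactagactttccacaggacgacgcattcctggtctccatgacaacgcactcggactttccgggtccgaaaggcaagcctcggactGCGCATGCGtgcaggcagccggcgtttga
Mrps27: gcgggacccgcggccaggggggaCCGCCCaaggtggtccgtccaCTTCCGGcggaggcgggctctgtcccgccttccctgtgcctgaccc
The coordinates are chr1:164351377-164351526, - strand for Mrpl48, chr9:22811234-22811383, - strand for Mrpl14, chr15:3967659-3967808, + strand for Mrps16 and chr9:47621077-47621226, + strand for Mrpl30. They are chr15:31852786-31852935, + strand for Mrpl52, chr10:42845760-42845909, + strand for Mrpl22 and chr2:32474114-32474203, + strand for Mrps27.

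Among the large subunit proteins with a bacterial counterpart, 8 of 24 were lower and none was higher, with a median of -0.17. Mrpl14, which lies where the 2 subunits meet, fell by 25.7%. Its log2 values were 7.21, 7.25 and 7.01 in the Ctrl samples and 6.74, 6.62 and 6.83 in the hCT1 samples. Every hCT1 sample was below every Ctrl sample, by at least 0.18, and the difference of the means was -0.43 ± 0.08 (SE, n = 3 per group, adjusted p = 0.00870). Mrpl30, the counterpart of bacterial protein L30, fell by 23.2%. It had 7.73, 7.63 and 7.55 in Ctrl against 7.09, 7.43 and 7.25 in hCT1, groups that did not overlap although the hCT1 samples were spread widely (-0.38 ± 0.09, adjusted p = 0.0213). Its call was lost, with adjusted p from 0.0598 to 0.0746, without Ctrl replicate 1, Ctrl replicate 2, hCT1 replicate 1 or hCT1 replicate 3. RefSeq lists pseudogenes of Mrpl30 by name on several chromosomes, and whether its probes also take up their transcripts was not tested.

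Mrpl22, whose bacterial counterpart reaches into the tunnel through which the new peptide leaves, fell by 22.4%. The 3 Ctrl samples had 8.03, 7.91 and 7.72 and the 3 hCT1 samples 7.43, 7.51 and 7.63. The nearest samples of the 2 groups, Ctrl replicate 3 and hCT1 replicate 3, were only 0.10 apart, and the difference was -0.37 ± 0.09 (adjusted p = 0.0221). Its adjusted p was 0.0645 to 0.0744 without Ctrl replicate 1, Ctrl replicate 2, hCT1 replicate 1 or hCT1 replicate 2. Mrpl12 is a protein of the stalk that receives translation factors and is also known to bind the mitochondrial RNA polymerase. It had 8.90, 8.77 and 8.71 in Ctrl and 8.55, 8.47 and 8.36 in hCT1, and fell by 20.4% (-0.33 ± 0.07, adjusted p = 0.0172). No sample overlapped between the groups, but the adjusted p became 0.0597, 0.0502 and 0.0595 when Ctrl replicate 1, hCT1 replicate 2 or hCT1 replicate 3 was left out, in that order. Mrpl27 (-0.29), Mrpl2 (-0.27), Mrpl13 (-0.24) and Mrpl32 (-0.23) were the other 4 that passed, and Mrpl27 and Mrpl14 were the ones of the 8 that passed whichever sample was left out. Mrpl2 held only without Ctrl replicate 2 (adjusted p at least 0.0605 otherwise), Mrpl13 only without Ctrl replicate 1 or hCT1 replicate 2 (at least 0.0537 otherwise), and Mrpl32 in none of these fits (0.0553 to 0.139). Mrpl3, the counterpart of a protein near the peptidyl transferase centre, had 7.61, 7.61 and 7.60 in Ctrl and 7.56, 7.65 and 7.55 in hCT1. Its difference of -0.02 had a 95% interval from -0.15 to 0.10 (adjusted p = 0.820).

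Among the 19 large subunit proteins grouped as without a bacterial counterpart, Mrps18a among them, 3 were lower and 1 was higher, with a median of -0.09. Mrpl48, a protein of the central protuberance at the top of the large subunit, fell by 26.2%, the largest fall of all members. Its values were 7.54, 7.50 and 7.51 in Ctrl and 6.97, 7.14 and 7.12 in hCT1. The Ctrl samples were tight (SD 0.02) and lay at least 0.36 above the hCT1 samples, the widest gap of the 8 falls shown by sample (-0.44 ± 0.06, adjusted p = 0.00215). Mrpl52 had 10.41, 10.41 and 10.35 in Ctrl and 9.96, 9.97 and 10.11 in hCT1, and fell by 23.1% (-0.38 ± 0.06, adjusted p = 0.00396). Mrpl48 and Mrpl52 were the members whose calls no left-out sample and no other alternative setting ended.

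The rise in this group was that of Mrpl46, another protein of the central protuberance, which was 20.2% higher. It had 8.63, 8.79 and 8.77 in Ctrl and 8.98, 8.99 and 9.01 in hCT1, so that the hCT1 samples lay close together (SD 0.02) and above every control (0.27 ± 0.06, adjusted p = 0.0194). The call did not survive the loss of Ctrl replicate 1 (adjusted p = 0.0658) or of any hCT1 replicate (0.0544, 0.0576 and 0.0612 in order). Mrpl51, the third largest positive value, did not pass: 10.32, 10.38 and 10.31 in Ctrl and 10.49, 10.48 and 10.47 in hCT1 gave 0.14 ± 0.05 (adjusted p = 0.110), although the groups did not overlap. It passed with the trended and robust eBayes (adjusted p = 0.0282). Mrpl44, a protein with the fold of the ribonuclease III family, had 5.94, 5.66 and 5.95 in Ctrl and 5.73, 5.58 and 5.55 in hCT1. These groups overlapped through the low value of Ctrl replicate 2 (-0.23 ± 0.09, adjusted p = 0.111), and without that sample the difference was -0.33 (adjusted p = 0.0348).

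**Figure D3:**
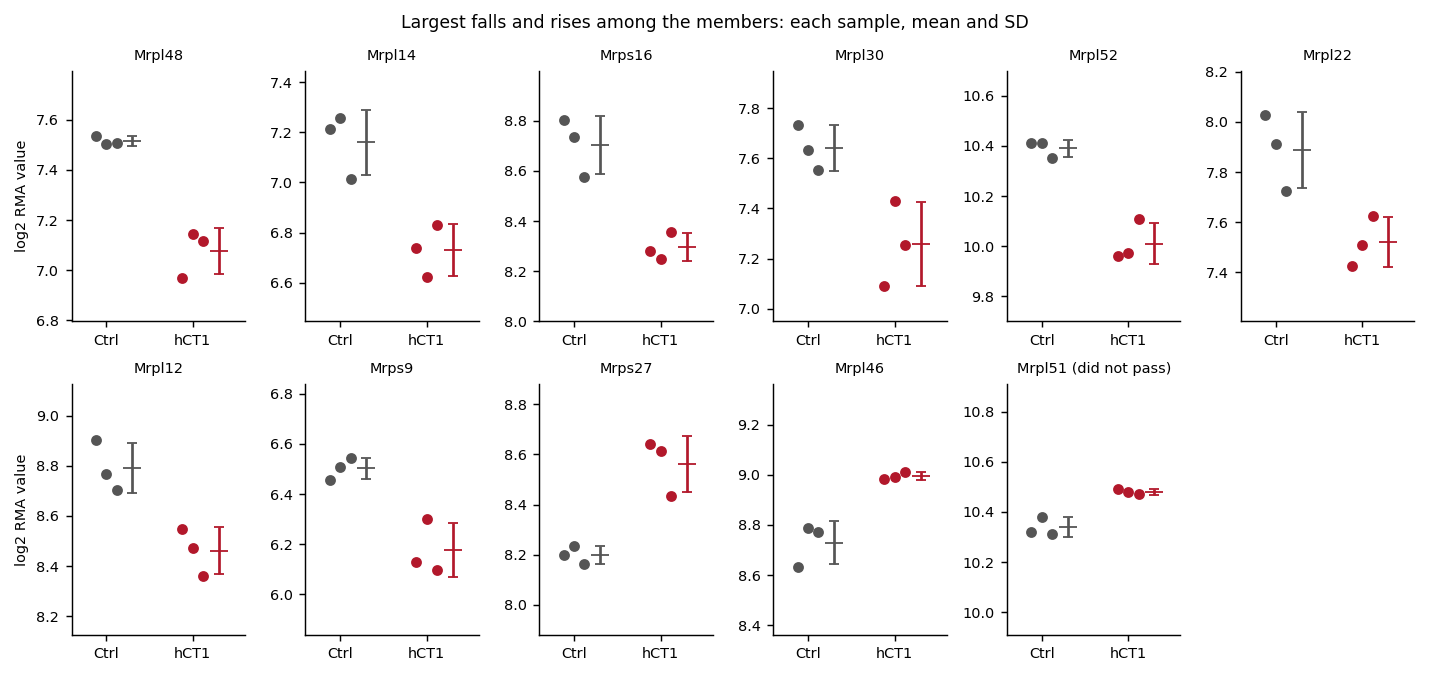
Log2 RMA value of each sample, with the mean and SD of the group beside it, for the 8 largest falls that passed, the 2 rises that passed (Mrps27 and Mrpl46) and Mrpl51, which did not pass. The axes of the panels span the same number of log2 units but start at different values, and no panel shows an overlap between Ctrl and hCT1 samples.

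Of the 15 small subunit proteins with a bacterial counterpart, 5 were lower and none was higher, with a median of -0.14. Mrps16, a protein that in humans is mutated in a respiratory chain disorder, fell by 24.7%. It had 8.80, 8.73 and 8.58 in Ctrl and 8.28, 8.25 and 8.36 in hCT1, with the groups 0.22 apart at their nearest (-0.41 ± 0.07, adjusted p = 0.00556). Mrps9, whose bacterial counterpart touches the transfer RNA in the peptidyl site, had 6.46, 6.51 and 6.54 in Ctrl and 6.13, 6.30 and 6.10 in hCT1, and fell by 20.2% (-0.33 ± 0.07, adjusted p = 0.0131). Both passed whichever sample was left out. The other 3 that passed were Mrps10 (-0.25), Mrps24 (-0.23) and Mrps15 (-0.20). Mrps15 had the narrowest spread of these, 8.85 to 8.89 in Ctrl and 8.66 to 8.67 in hCT1. The calls of Mrps10, Mrps24 and Mrps15 held only without Ctrl replicate 3. With any other sample left out, adjusted p was 0.0626 to 0.0907 for Mrps10, 0.0540 to 0.144 for Mrps24 and 0.0790 to 0.0933 for Mrps15. Mrps12, a protein of the decoding centre, did not pass. Its values were 9.23, 9.16 and 8.95 in Ctrl and 9.02, 8.89 and 8.85 in hCT1, and hCT1 replicate 1 lay above Ctrl replicate 3 (-0.19 ± 0.08, adjusted p = 0.163). Without Ctrl replicate 3 the difference was -0.27 (adjusted p = 0.0373).

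Of the 10 small subunit proteins grouped as without a bacterial counterpart, Mrps18b among them, 3 were lower and 1 was higher, with a median of -0.09. The higher one, Mrps27, a protein of the pentatricopeptide repeat family that binds RNA, had the largest rise of all members, 28.6%. It had 8.20, 8.24 and 8.16 in Ctrl and 8.64, 8.61 and 8.43 in hCT1. The lowest hCT1 sample was 0.20 above the highest control (0.36 ± 0.07, adjusted p = 0.00814). Mrps34 had 7.16, 6.98 and 7.05 in Ctrl and 6.77, 6.72 and 6.81 in hCT1, and fell by 18.6% (-0.30 ± 0.06, adjusted p = 0.0150). Its adjusted p was 0.0538 without Ctrl replicate 1 and 0.0573 without hCT1 replicate 2. Mrps26 and Mrps23, both at -0.28, were the other 2 that passed. Mrps26 did not pass without Ctrl replicate 1 or 2 or hCT1 replicate 1 or 3 (adjusted p 0.0653 to 0.0830), nor Mrps23 without any sample but Ctrl replicate 3 (0.0523 to 0.109). Mrps22, in which human variants impair mitochondrial translation, ranged from 8.97 to 9.03 in Ctrl and from 8.89 to 9.04 in hCT1. Its difference was -0.02, with a 95% interval from -0.16 to 0.11 (adjusted p = 0.826).

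The 3 paralogs of bacterial S18 differed in their values. Although paralogs of it, Mrps18a and Mrps18b are grouped in this text with the proteins without a bacterial counterpart. Mrps18a, which despite its name sits in the large subunit, fell by 15.2%. It had 9.92, 9.73 and 9.74 in Ctrl and 9.56, 9.51 and 9.61 in hCT1 (-0.24 ± 0.07, adjusted p = 0.0474). This was one of the calls nearest to the threshold: it held without Ctrl replicate 3, and the adjusted p was 0.0719 to 0.143 without any 1 of the other 5 samples. Mrps18c, the paralog closest to the bacterial protein in its position, had 9.38, 9.40 and 9.30 in Ctrl and 9.22, 9.28 and 9.27 in hCT1 (-0.10 ± 0.06, adjusted p = 0.258). Mrps18b had 9.41, 9.31 and 9.17 in Ctrl and 9.31, 9.28 and 9.34 in hCT1, a difference of 0.01 with a 95% interval from -0.15 to 0.17 (adjusted p = 0.943). Whether the 3 paralogs differ from one another was not tested. Mrps30, also a large subunit protein, ranged from 9.33 to 9.78 in Ctrl and from 9.43 to 9.58 in hCT1, the widest Ctrl spread of the members named here (SD 0.25). Its difference was 0.03, with a 95% interval from -0.22 to 0.28 (adjusted p = 0.898). Mrpl58 and Mrps36, which the rule for named genes also lists, had no probe set with a single symbol here.

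Set side by side, 11 of the 43 large subunit genes were lower and 1 higher, with a median of -0.15, and 8 of the 25 small subunit genes were lower and 1 higher, with a median of -0.11. In the same fit 9.58% of all genes were lower and 5.09% higher. Of the 39 proteins with a bacterial counterpart 13 were lower and 0 higher, with a median of -0.15, and before adjustment p was under 0.05 for 21 lower and 0 higher ones. Of the 29 grouped as without one, Mrps18a and Mrps18b among them, 6 were lower and 2 higher, with a median of -0.09. Before adjustment p was under 0.05 for 11 lower and 3 higher ones of these. Of all 14506 genes, 2592 lower and 1735 higher ones had such a p. Both rises that passed were in the group without a bacterial counterpart. These counts moved with the samples: the lower large subunit genes were 5 without Ctrl replicate 1, hCT1 replicate 1 or hCT1 replicate 3, 6 without hCT1 replicate 2, 8 without Ctrl replicate 2 and 13 without Ctrl replicate 3. The lower small subunit genes were 2 on removal of Ctrl replicate 1, 9 on removal of Ctrl replicate 3 and 3 on removal of any other sample. For proteins with a bacterial counterpart the count ran from 5 to 14, and for the others from 2 to 8. The share of all genes that were lower moved too, from 5.13% without Ctrl replicate 1 to 11.7% without Ctrl replicate 3. Whether the subunits, or the proteins with and without a bacterial counterpart, differ from each other was not tested.

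The 4 members with 2 probe sets were Mrps11, Mrpl40, Mrpl41 and Mrpl42, and in 2 of them the probe sets differed in call or direction. For Mrps11 the probe set that represents the gene (10770393) had 8.73, 8.70 and 8.69 in Ctrl and 8.73, 8.65 and 8.57 in hCT1, which overlap (-0.06 ± 0.06, adjusted p = 0.519). The other (10708004) had 8.71, 8.79 and 8.72 in Ctrl and 8.33, 8.32 and 8.38 in hCT1, fully apart (-0.40 ± 0.05, adjusted p = 0.00180). The rule took the first because its mean over the 6 samples was higher, although in the Ctrl samples alone the second had the higher mean, 8.74 against 8.71. With the mean of both probe sets, Mrps11 passed and 20 members were lower.

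For Mrpl42 the representing probe set (10901999) had 11.25, 11.24 and 11.15 in Ctrl and 11.16, 11.14 and 11.11 in hCT1 (-0.08 ± 0.06, adjusted p = 0.381). The other (10764314) went the opposite way, with 7.83, 7.81 and 7.68 in Ctrl and 7.96, 8.13 and 8.06 in hCT1 (0.28 ± 0.07, adjusted p = 0.0249). The probe sets of Mrpl40 (-0.19 and -0.13) and of Mrpl41 (-0.22 and -0.19) agreed in sign, and none of these passed. RefSeq lists by name 39 further copies, nearly all pseudogenes, for 23 of the 68 members. All 4 genes with 2 probe sets are among these 23, as are 5 of the 19 lower members (Mrpl2, Mrpl30, Mrpl32, Mrps10 and Mrps16) and Mrpl46. The gene table does not say where in the genome a probe set lies, so values of these 23 genes, and both values of Mrps11 and Mrpl42 above all, are uncertain as to which copy they report. Probe set numbers largely group by chromosome. Mrps11 is on chromosome 1, and 10708004 falls between the numbers of Mrpl18 and Mrpl23, both on chromosome 1. The representing 10770393 falls between those of Mrps14 (chromosome 13) and Mrps18c (chromosome 14), and RefSeq lists Mrps11-ps1, a pseudogene, on chromosome 13. Whether 10770393 reports that pseudogene was not tested.

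**Figure D4:**
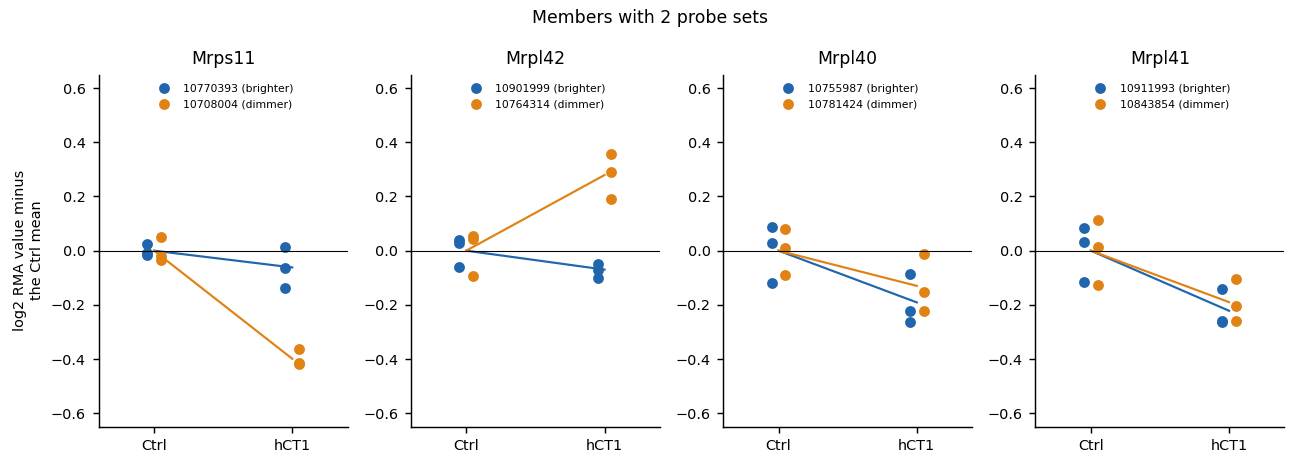
Log2 RMA value of each sample minus the Ctrl mean of its probe set, for the 4 members with 2 probe sets. The probe set that represents the gene is in blue and the other in orange, with lines joining the group means: they separate for Mrps11 (-0.06 and -0.40) and point opposite ways for Mrpl42 (-0.08 and 0.28).

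Other genes of mitochondrial translation were taken from lists whatever their values. Of 5 proteins of the mitochondrial ribosome whose genes carry other names, 3 were lower, a count that ran from 0 (without Ctrl replicate 1 or hCT1 replicate 2) to 3 when samples were left out. Gadd45gip1, also called CRIF1 and placed at the mouth of the large subunit's peptide tunnel, had 7.53, 7.42 and 7.61 in Ctrl and 7.22, 7.18 and 7.26 in hCT1 and fell by 18.9% (-0.30 ± 0.06, adjusted p = 0.0153). Without Ctrl replicate 1 its adjusted p was 0.0506 and without hCT1 replicate 2 it was 0.0573. The small subunit proteins Chchd1 (-0.28 ± 0.08, adjusted p = 0.0426) and Aurkaip1 (-0.22 ± 0.06, adjusted p = 0.0337) were lower too. Chchd1 lost its call, with adjusted p up to 0.135, on removal of Ctrl replicate 1 or 2 or of hCT1 replicate 1 or 2, and Aurkaip1, with adjusted p up to 0.129, without any 1 sample other than Ctrl replicate 3. The other two did not pass. Dap3, a GTP-binding protein, had a difference of 0.03 and Ptcd3, a pentatricopeptide repeat protein, one of 0.12.

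Factors that build or serve the ribosome were also listed. Of 21 genes of ribosome assembly and ribosomal RNA modification, 1 was lower and 1 higher, with a median of -0.07. Fastkd2, an RNA-binding protein of the mitochondrial RNA granules, rose by 30.5%, from 6.76, 6.85 and 6.78 in Ctrl to 7.12, 7.24 and 7.17 in hCT1 (0.38 ± 0.06, adjusted p = 0.00304), and passed whichever sample was left out. The helicase Dhx30, found in the same granules, went the other way, from 7.21, 7.13 and 7.02 to 6.74, 6.80 and 6.92 (-0.30 ± 0.07, adjusted p = 0.0235). Its adjusted p was 0.0733 to 0.0817 when Ctrl replicate 1 or 2, or hCT1 replicate 1 or 2, was left out. Without Ctrl replicate 3, 4 genes of this list were lower, and 11.7% of all genes.

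None of the 11 translation factors passed in the main limma fit, and before adjustment p was under 0.05 for 2 lower and 1 higher. Their largest values were those of Mrrf, the ribosome recycling factor (0.24 ± 0.07, adjusted p = 0.0622; 0.0257 with the trended and robust eBayes, 0.0384 without probe sets under percentile 40 and 0.0393 after another quantile normalization), and Gfm1, an elongation factor (0.16 ± 0.09, adjusted p = 0.273). Nor did any of the 13 aminoacyl-tRNA synthetases, of which 3 lower and 2 higher ones had an unadjusted p under 0.05. Of all 14506 genes, 2592 lower and 1735 higher ones had such a p. Aars2, which charges the alanine transfer RNA, had -0.27 ± 0.08 (adjusted p = 0.0536, 0.00857 without Ctrl replicate 3 and 0.0142 to 0.0333 with array weights, with the trended and robust eBayes or without probe sets under percentile 40), and Yars2, which charges the tyrosine one, had 0.19 ± 0.08 (adjusted p = 0.147). Of 14 genes of mitochondrial transcription and RNA processing, 1 passed. Polrmt, the mitochondrial RNA polymerase that Mrpl12 binds, fell by 15.5%, from 6.88, 6.86 and 6.80 in Ctrl to 6.69, 6.56 and 6.57 in hCT1 (-0.24 ± 0.06, adjusted p = 0.0256). Its adjusted p was 0.0798 to 0.0883 without Ctrl replicate 1, Ctrl replicate 2, hCT1 replicate 2 or hCT1 replicate 3. The medians of these 3 lists were -0.07, -0.01 and -0.02.

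The cytosolic ribosomal protein genes, which encode the proteins of the other ribosome of the cell, are set beside these. Of 69 such genes 21 were lower and 0 higher, with a median of -0.13, beside 19 of 68 and -0.14 for the mitochondrial ones. Complex I subunits, the largest set of respiratory chain proteins and partly products of the mitochondrial ribosome, were represented by 32 nuclear genes, of which 14 were lower and 0 higher, with a median of -0.17. Of all genes 9.58% were lower and 5.09% higher. With 1 sample left out, the lower counts were 14 to 18 for the cytosolic list, 11 to 15 for complex I and 7 to 22 for the members. In those fits 5.13% to 11.7% of all genes were lower. The counts share the same 6 samples, and the lists were not tested against each other.

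**Figure D5:**
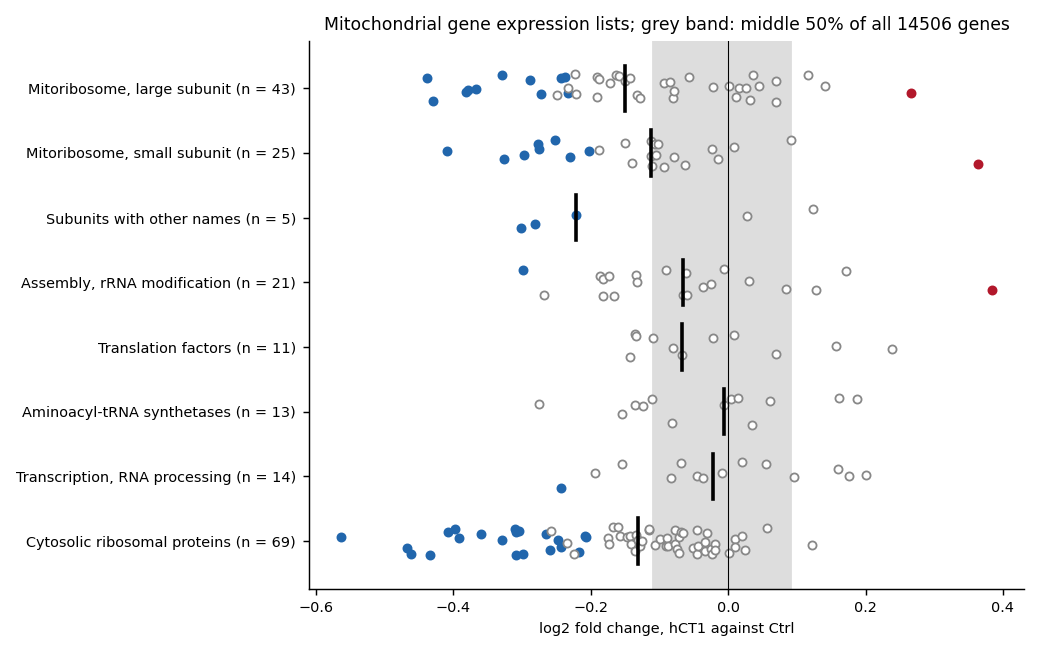
Log2 fold change (hCT1 against Ctrl) of each gene of the 2 subunits, of 5 other lists of mitochondrial gene expression and of the cytosolic ribosomal proteins. Blue and red points passed as lower and higher, open points did not pass, black bars are list medians, and the grey band holds the middle 50% of all 14506 genes (-0.11 to 0.09).

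Promoters were listed in RefSeq for 54 of the 68 members, 16 of them lower, 2 higher and 36 that did not pass. Windows of 300 bases, from 250 before to 50 from the first listed start, were searched on both strands for 7 motifs. These were GCGCANGCG for NRF1, a regulator of genes of mitochondrial proteins, CCGGAAG for the ETS family, AAGATGG for YY1, GGGCGG for SP1, CCAAT for the CCAAT box, TATAAA for the TATA box and TTCNNNGAA for STAT factors, which act downstream of cytokines of this family. Motifs overlapped each other only in Mrps17 (CCAAT box and SP1) and Mrpl53 (ETS and SP1).

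Of the 54 windows, 20.4% held the NRF1 motif, against 9.81% of 11951 windows of tested genes and 6.26% of 27457 windows in all. The ETS motif stood in 33.3%, against 13.0% of tested genes and 9.22% of all. The YY1 motif stood in 27.8%, against 7.51% and 7.29%. The shares nearest to those of tested genes were 53.7% against 50.2% for SP1, 42.6% against 38.4% for the CCAAT box, 13.0% against 11.8% for the TATA box and 11.1% against 7.60% for STAT. Among the 16 lower members, 5 held the NRF1 motif, 7 the ETS motif, 5 the YY1 motif and 2, Mrpl30 and Mrps9, the STAT motif. Among the 36 that did not pass, the counts were 6, 10, 8 and 4. Both higher members held the YY1 motif and neither the NRF1 motif. In the printed stretches the ETS motif stands before Mrpl48, Mrpl52 and Mrps27, the NRF1 motif before Mrpl22 and Mrpl30, and the SP1 motif before Mrpl14, Mrps16 and Mrps27. Mrps16 also shows a CCAAT box, Mrpl30 the STAT motif and Mrpl52 the YY1 motif. These matches are letters in a window and do not show that a factor binds there.

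A gene that starts within 1000 bases on the opposite strand and runs away from the member was listed for 18 of the 54 (33.3%), against 12.7% of tested genes. Mrpl46 and Mrps11 are partners of each other, so these are 17 distinct pairs, and both genes were measured in 13 of them. The 2 differences had the same sign in 8 of the 13, and both passed in the same direction in 2, Mrpl2 with Klc4 (-0.27 and -0.32) and Mrpl32 with Psma2 (-0.23 and -0.24). No such counts are given for pairs of other genes, so these are not read as a trait of the members. Mrps27 and its partner Ptcd2, another pentatricopeptide repeat gene whose start lies 91 bases away, had 0.36 and 0.16, and Ptcd2 did not pass (adjusted p = 0.162). Mrpl46 and Mrps11 start 234 bases from each other by the first listed starts, and had 0.27 and, on the representing probe set, -0.06. The other probe set of Mrps11 had -0.40 (adjusted p = 0.00180). Mrpl49, with 0.12, did not pass, whereas its partner Fau, a cytosolic ribosomal protein gene 186 bases away, was lower (-0.22, adjusted p = 0.0241).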

How the data were processed

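Array data from 6 samples of primary neonatal rat cardiomyocytes, 3 Ctrl and 3 hCT1, were grouped by their labels. The authors deposited log2 values made with RMA in Affymetrix Expression Console (per the labels, without versions), which corrects background, equalises quantiles across arrays and summarises each probe set. The values were used as deposited, and no detection calls or build came with them in the sources used here. Fold changes of dim probe sets are understated on this scale.

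Of 29215 probe sets, 15310 were paired with exactly 1 symbol and tested, 323 had several symbols and 13582 none. Entrez identifiers matched 15279 of the 15310, and all 68 members, to RefSeq (GRCr8). Groups were compared by limma 3.58.1 (R 4.3.3; lmFit, then eBayes, 2-sided), and p-values of all 15310 were adjusted together (Benjamini-Hochberg, threshold 0.05). The members, lists and tests were chosen with earlier results of these data known. An exact permutation test of 3 against 3 samples cannot go below p = 0.1, so none is given. The number of arrays limits the precision. On simulated data with these means and variances, limma found 66 of 66 log2 changes of 1, 50 of 67 of 0.5 and 10 of 67 of 0.25, with 4 false calls among 15310 probe sets. Only these probe sets were changed in the simulation, a much smaller share than passed in the real data. The adjustment is stricter when fewer change, so these rates and false calls need not hold for the real fit.

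Values by sample are given for the 8 largest falls and rises that passed (3 values where fewer passed), for genes chosen by role (Mrpl12, Mrps12, Mrpl3, Mrpl44, Mrps22, the Mrps18 paralogs, Mrpl58, Mrps30 and Mrps36), for members whose probe sets disagree, and, for each list, the 2 largest changes that passed, or the 2 largest values if none did. Aurkaip1, Dap3, Ptcd3, the other members given by their difference alone, and the genes next to members were named after their values were seen. The 18 alternatives changed the test, the filter, the normalization, the threshold, the choice of probe set or the samples. Pairing by replicate number was not part of the main fit. The correlation of same-numbered Ctrl and hCT1 samples, in deviations from the group means, was -0.03, 0.05 and -0.28. Differently numbered samples ran from -0.18 to 0.21. With 3 samples per group, these values cannot decide whether same-numbered samples shared a preparation.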

Additional observations from a re-analysis of the deposited data

How the results depend on the processing

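The 19 lower and 2 higher members and their median were recomputed under 18 alternatives. The count of lower members, with the share of all genes lower in the same fit, was 8 (5.76%) when all 29215 probe sets were tested, 12 (7.29%) after another quantile normalization, 30 (15.7%) with the methods' one-way test unadjusted and 5 (4.20%) with it adjusted, 4 (3.56%) at an adjusted p under 0.01 and 10 (6.50%) with the replicate block. Leaving out 1 sample at a time gave 7 to 22 (5.13% to 11.7%). The other settings gave 15 to 26 (8.52% to 17.6%). The count of higher members was 0 with the adjusted one-way test (3 when unadjusted), 3 with the trended and robust eBayes, which added Mrpl51, 1 at an adjusted p under 0.01 and 1 to 2 with 1 sample left out. The median of the members was -0.10 after another quantile normalization and -0.12 with arrays centred on their median, where the median of all genes was 0.02. It stayed below 0 under all 18.

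Of the named genes, none that passed changed sign. Among those that did not pass, Mrps18b had -0.0091 with array weights and Mrpl3 had 0.037 after another quantile normalization. With 1 sample left out, Mrps30 ranged from -0.058 to 0.17, Mrps18b from -0.055 to 0.068 and Mrps22 from -0.057 to 0.019. The cause of these differences was not tested. Differences of 0.25 can be missed with 3 arrays per group: the simulation found 10 of 67. A member with such a value that did not pass is not shown to be unchanged.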
